A study of Mus musculus with 8 samples.

Results

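Messenger RNA of neurotrophins, of GDNF and of their receptors was followed in the striatum of adult mice with 1 trapped copy of Brd2. The set holds 9 of the 30175 gene names on the array, the ligands Bdnf, Ntf3 and Gdnf and the receptors Ntrk2, Ntrk3, Ngfr, Sort1, Gfra1 and Ret. Every probe that the array files name for one of them, control spots aside, was taken, which gave 16 of the 39429 probes. Of these, 14 probes of 7 genes passed the scanner software's test for signal well above background in 4 or more of the 8 samples and were tested. The probes of Ntf3 and Ret were not.

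The tested samples were 4 Brd2+/- (heterozygous) striata, set against 4 wildtype striata, all from adult female C57Bl/6j mice. Brd2, a BET family protein that binds acetylated histones, was interrupted in 1 copy by a gene-trap vector carried in the line, so its loss was not limited to the striatum or to adult life. Parents were heterozygous on both sides, and the line had been backcrossed to the C57Bl/6J strain. Total RNA was hybridised to 2-colour Agilent arrays, and each of the 4 arrays on 1 slide held 2 samples of the same genotype. Replicates 1 and 3 of each genotype carried Cy3, and replicates 2 and 4 carried Cy5. Replicates are described as biological, with no statement on whether a replicate was 1 animal or a pool, and p-values therefore reflect the spread among these 8 samples alone. The tissue label names prefrontal cortex beside striatum, while the sample descriptions name striatum alone.

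Neurotrophins are secreted proteins that keep neurons alive and adjust their synapses. BDNF acts through the receptor tyrosine kinase TrkB (Ntrk2), NT-3 (Ntf3) through TrkC (Ntrk3), and the unprocessed precursors act through p75 (Ngfr) together with sortilin (Sort1). Striatal projection neurons depend on BDNF but make little of it, and most of the protein reaches them along axons from the cortex. Ntrk2 and Ntrk3 each give a full-length receptor with a kinase domain and truncated receptors without it, and truncated TrkB is abundant in astrocytes. GDNF binds GFRα1 (Gfra1) and signals through Ret, and it is best known for its support of dopamine neurons that project to the striatum.

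Because Ntrk2 and Ntrk3 are measured by probes for different receptor forms, their protein-coding probe sequences are shown, in lower case from 5′ to 3′ of the transcript. Capitals in the truncated Ntrk3 probe mark its last 3 bases, a stop codon. The Ntrk2 probe, at mm9 chr13:58979563-58979622 on the plus strand, reads the membrane-spanning part that full-length and truncated TrkB share. The Ntrk3 probes, all on the minus strand, read the activation loop of the kinase at chr7:85392044-85392103, the last coding part of the full-length receptor at chr7:85337455-85337514, and the end of the truncated coding sequence at chr7:85447515-85447574.
Ntrk2 shared: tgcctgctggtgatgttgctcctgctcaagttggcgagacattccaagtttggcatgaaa
Ntrk3 kinase loop: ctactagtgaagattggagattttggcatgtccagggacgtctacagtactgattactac
Ntrk3 full-length tail: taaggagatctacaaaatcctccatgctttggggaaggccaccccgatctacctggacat
Ntrk3 truncated tail: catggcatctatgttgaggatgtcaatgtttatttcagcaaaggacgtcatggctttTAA

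The other Ntrk2 probes read the transcript ends of single forms. The full-length end probe (A_51_P393454) lies at chr13:59230936-59230995 and starts at base 4212 of NM_001025074. The truncated end probe (A_65_P04961) lies at chr13:59038046-59038105 and starts at base 6656 of NM_008745. A further Ntrk3 probe, the truncated end probe (A_52_P500274), lies at chr7:85445908-85445967 and starts at base 3441 of NM_182809, downstream of the truncated tail.

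Brd2 itself was lower in heterozygous striata with the brighter of its 2 probes. This probe (A_55_P1958678) gave log2 normalised intensities of 11.92, 11.83, 12.57 and 11.70 in heterozygous replicates 1 to 4, and of 13.10, 12.98, 12.64 and 12.70 in wildtype replicates 1 to 4. The difference, heterozygous minus wildtype, was -0.85 (SE 0.190, n = 4 each), and the groups separated in an exact two-sided permutation test (p = 0.0286, the smallest that 4 against 4 samples allow). Permuted within each dye, the exact p was 0.0556, the smallest that 36 splits allow. Neither permutation takes account of the shared arrays. Across all probes in limma the Brd2 difference did not pass (adjusted p = 0.390). The other Brd2 probe (A_55_P1953545), well above background in 3 heterozygous and 2 wildtype samples, had the opposite sign, with a difference of 0.29 (SE 0.170, adjusted p = 0.645). The library labelled heterozygous replicate 3 lay next to the lowest wildtype value, so results that rest on it are given without it as well. It is called replicate 3 where no genotype is named. The share of spots well above background ranged from 37.7% to 47.6% in the Cy3 samples and from 65.9% to 75.5% in the Cy5 samples, lowest in that library. The striatal markers Ppp1r1b (DARPP-32), Penk (proenkephalin) and Drd1a (dopamine D1 receptor) were well above background in all 8 samples. Drd2 (dopamine D2 receptor) was so in 3 heterozygous and 4 wildtype samples.

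No neurotrophin or receptor probe differed between genotypes past the threshold. Differences below are log2 values, heterozygous minus wildtype, from limma with terms for genotype and dye and a random block for the shared array, with p-values adjusted over 25324 probes by the Benjamini-Hochberg method. The smallest adjusted p of a member was 0.437, for Gdnf, and across the array 1 probe passed at adjusted p under 0.05, which is 0.00395% of those tested. At an unadjusted p under 0.05 there were 2 of 14 member probes, Bdnf higher and Gdnf lower, beside 8.88% of all probes. Differences were positive for 6 and negative for 8 member probes, and 46.3% of all probes had a positive difference. The median member difference was -0.06, against -0.02 over all tested probes. In size the median was 0.21 for the member probes and 0.14 for all tested probes. Without replicate 3, and without the array of heterozygous replicates 3 and 4, again 0 member probes passed.

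**Figure D1:**
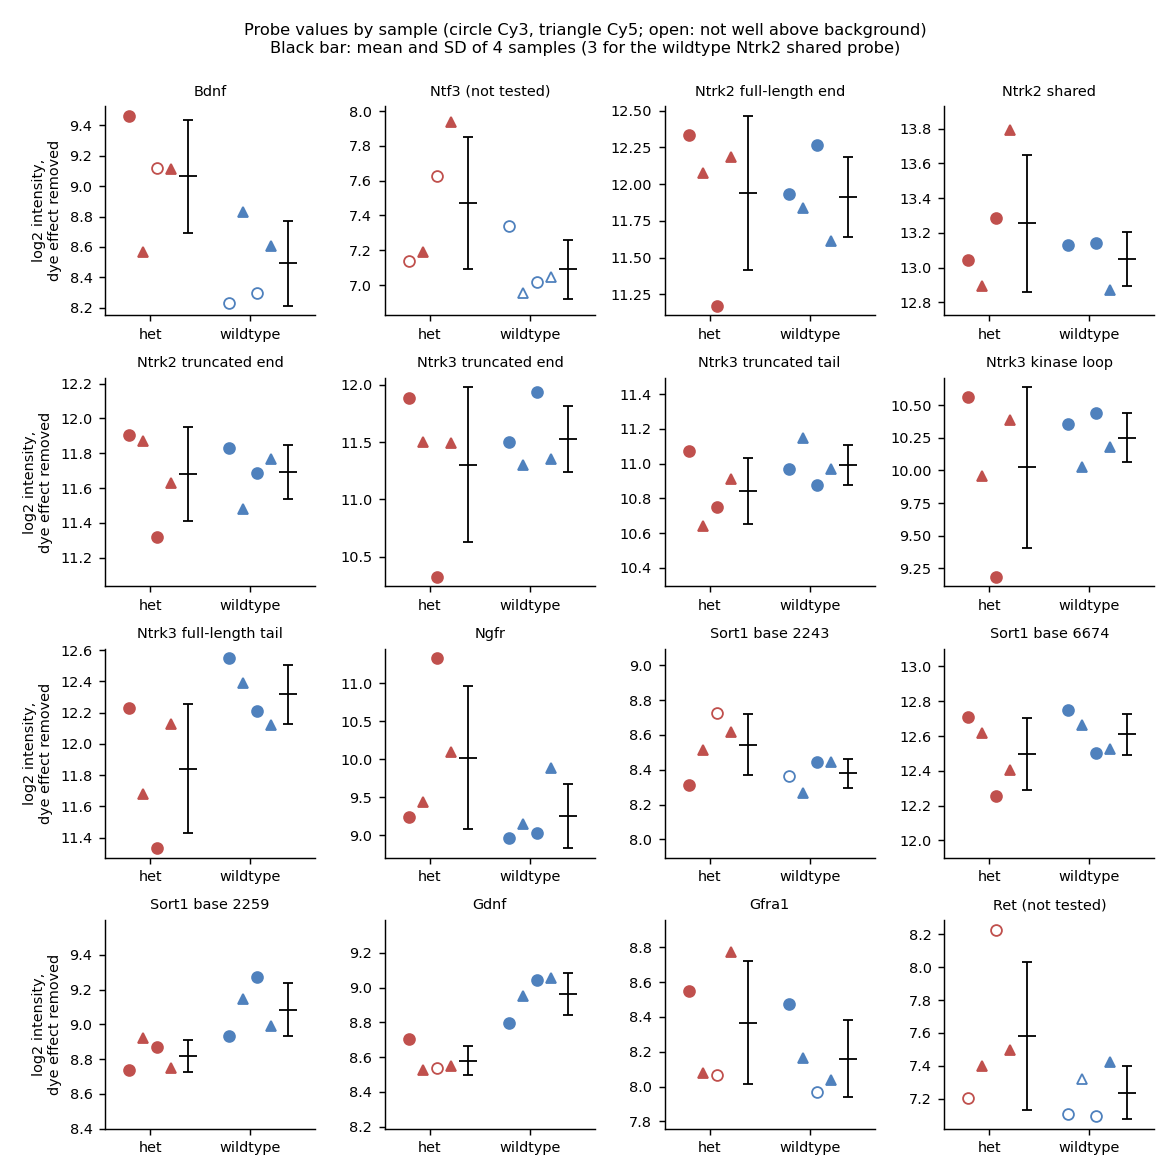
Log2 normalised intensity of each of the 16 probes after removal of the dye effect, with the heterozygous samples left of the wildtype samples in each panel. Circles are Cy3, triangles are Cy5, open symbols were not well above background, and the black bar is the mean with its SD; Gdnf and the Sort1 probe at base 2259 are the tested probes whose groups do not overlap.

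Bdnf, the ligand for which cortical supply matters most in this tissue, averaged higher in heterozygous striata, by more in Cy3 than in Cy5. Its probe (A_55_P2036303, chr2:109566961-109567020, plus strand, base 4062 of NM_007540) gave log2 values of 8.92, 9.11, 8.58 and 9.65 in heterozygous replicates 1 to 4, against 7.69, 9.37, 7.76 and 9.14 in wildtype replicates 1 to 4. With the dye effect removed, heterozygous samples averaged 9.06 ± 0.37 and wildtype samples 8.49 ± 0.28 (SD, n = 4 each). The groups overlapped, since heterozygous replicate 2 (8.57) lay below wildtype replicates 2 and 4 (8.83 and 8.60). The fitted difference was 0.57 (SE 0.217, 95% interval 0.07 to 1.07), a ratio of 1.49. It did not pass in limma (adjusted p = 0.518), nor when the 8 dye-centred values were permuted (exact two-sided p = 0.0857). Permuted within each dye, the exact p was 0.167, where 0.0556 is the smallest the 36 splits allow.

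Within the dyes the Bdnf difference was 1.02 in Cy3 and 0.12 in Cy5. The probe was dim in Cy3, where it was well above background in heterozygous replicate 1 and in none of the other Cy3 samples. Before normalisation its spot measured 533 and 294 intensity units in the heterozygous Cy3 samples, against 257 and 304 in the wildtype ones. The medians of negative controls in Cy3 were 244 to 261 units. Heterozygous replicate 3 was dimmer than wildtype replicate 3 before normalisation (294 against 304) and higher after it (log2 8.58 against 7.76). The Cy3 difference thus rests in part on signal near the negative controls. In Cy5 it measured 993 and 1293 units in heterozygous samples, against 575 and 564 in wildtype samples. Raw Cy5 brightness was also greater overall in the heterozygous samples, with median spot intensities of 359 and 321 against 212 and 235 in wildtype. The normalised Bdnf difference without replicate 3 was 0.55.

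Transcripts of cortical excitatory neurons averaged higher in the same striata. Of 23 tested genes on that list, 17 had a positive difference and 6 a negative one, with a median of 0.31. None passed the adjusted threshold in limma, and 8 were higher and 2 lower at an unadjusted p under 0.05, beside 4.06% and 4.83% of all probes. The filter can admit a gene through the 4 heterozygous samples alone. Over the listed genes well above background in all 8 samples, the median was 0.18. Averaged over all 23 tested genes and set against wildtype, heterozygous replicates 1 to 4 stood at 0.93, 0.64, 0.41 and 0.32. Wildtype replicates 1 to 4 stood at -0.07, 0.27, -0.13 and -0.09. These levels include any gene that the filter admitted through the heterozygous samples alone, so their separation was not read as a genotype difference. For Slc17a7, which loads glutamate into vesicles of cortical neurons, the difference was 2.15 (SE 0.402, adjusted p = 0.373 in limma), and for Tbr1, a transcription factor of cortical projection neurons, it was 1.92 (SE 0.509, adjusted p = 0.422). Both were well above background in 4 heterozygous and 2 wildtype samples. The Tbr1 groups overlapped, with a lowest heterozygous value of 10.91 and a highest wildtype value of 11.01 after dye removal. Both genes lie far above the list median of 0.31 and do not stand for the 6 genes that went the other way. Slc17a7 differed by 2.76 in Cy3 and 1.54 in Cy5, and Tbr1 by 3.06 in Cy3 and 0.79 in Cy5. As the plot of members beside marker lists shows, the list level and Bdnf were each highest in heterozygous replicate 1, whereas replicate 2, second highest for the list, had the lowest heterozygous Bdnf (8.57), and replicate 4, lowest of them for the list, had Bdnf at 9.11. Their part in the Bdnf difference was not tested. In bulk RNA, a change in the number of cells of a type and a change in RNA per cell cannot be told apart.

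The genes whose dye-centred values ran most like Bdnf over the 8 samples, among 8655 named genes well above background in all of them, were Tox (r = 0.950), Atl2 (r = 0.944), Asb1 (r = 0.937), Sympk (r = 0.932) and Otud7b (r = 0.925). These correlations describe 8 samples that share slide, array and dye. Being the highest of 8655, they are large through selection and are descriptive only.

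Ntf3, which encodes NT-3, was near background. Its probe (A_55_P2021565) measured 257, 149, 242 and 312 intensity units in heterozygous replicates 1 to 4, against 256, 98.0, 236 and 106 in wildtype replicates 1 to 4. It was well above background in the 2 heterozygous Cy5 samples and in 0 wildtype samples, and no fold is given because the lowest signal called above background in wildtype exceeds the heterozygous mean.

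Gdnf had the smallest p among the members, with lower values in heterozygous striata. Its probe (A_55_P2045896, chr15:7787474-7787533, plus strand, base 3407 of NM_010275) gave dye-centred log2 values of 8.70, 8.52, 8.54 and 8.55 in heterozygous replicates 1 to 4, against 8.80, 8.95, 9.04 and 9.05 in wildtype replicates 1 to 4. All heterozygous values lay below all wildtype values, and within the heterozygous group replicate 1 stood apart, nearest to wildtype. The difference was -0.38 (SE 0.106, 95% interval -0.63 to -0.14), a ratio of 0.767, and was not called in limma (adjusted p = 0.437). It was -0.30 in Cy3 and -0.47 in Cy5, and -0.37 without replicate 3. Before normalisation the spot was not lower in Cy5, at 592 and 537 intensity units in heterozygous samples against 442 and 546 in wildtype samples. In Cy3 it measured 492 and 321 units in heterozygous samples, against 438 and 606 in wildtype samples. Negative controls had medians of 244 to 261 units in Cy3. The spot was well above background in 3 heterozygous samples and in 4 wildtype samples. Groups that did not overlap occurred in 2 of 13 member probes with all 8 values, both of them lower, and in 8.62% of all such probes (3.39% higher and 5.23% lower).

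**Figure D2:**
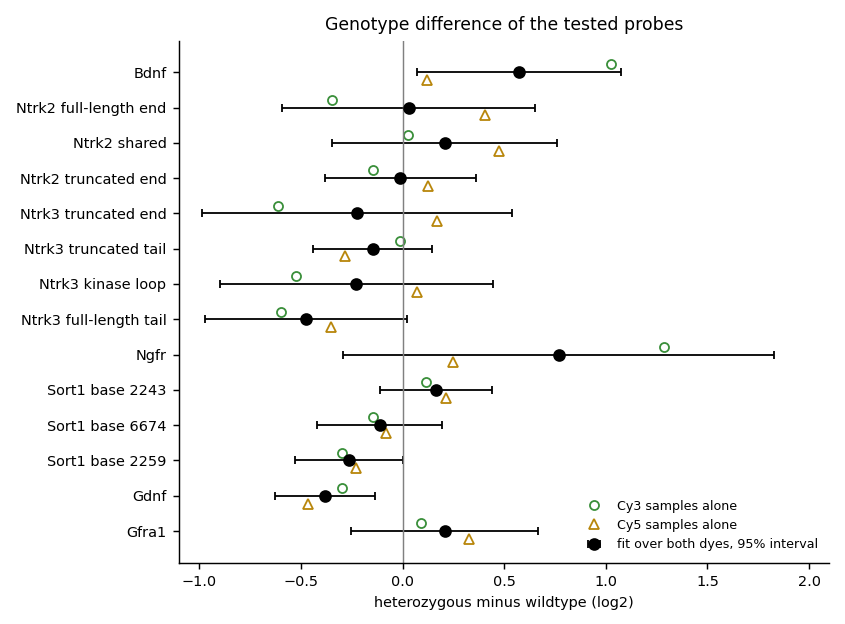
Genotype difference of the 14 tested probes on the log2 scale (heterozygous minus wildtype). Black points are the fit over both dyes with its 95% interval, green circles the Cy3 samples alone and yellow triangles the Cy5 samples alone; Bdnf differs by 1.02 in Cy3 and 0.12 in Cy5, while Gdnf is negative in both.

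Ntrk2, the BDNF receptor, showed no genotype difference that exceeded the spread between samples with any probe. The full-length end probe, printed as 10 spots per array, gave dye-centred log2 values of 12.33, 12.07, 11.17 and 12.19 in heterozygous replicates 1 to 4, against 11.93, 11.83, 12.27 and 11.61 in wildtype replicates 1 to 4. Replicate 3 was low, and the other heterozygous values lay among or slightly above the wildtype ones. The difference was 0.03 (SE 0.269, 95% interval -0.59 to 0.65, adjusted p = 0.982 in limma), and it was 0.34 without replicate 3. The dyes disagreed in sign, with -0.35 in Cy3 and 0.41 in Cy5.

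The shared Ntrk2 probe, whose sequence is given above, gave 13.04, 12.89, 13.29 and 13.79 in heterozygous replicates 1 to 4 and 13.13, 13.14 and 12.87 in wildtype replicates 1, 3 and 4. Wildtype replicate 2 was marked as an outlier spot and left out, so the fit used 3 wildtype values. Heterozygous replicates 3 and 4, which shared an array, were the brightest. The difference was 0.21 (SE 0.234, 95% interval -0.35 to 0.76, adjusted p = 0.798 in limma), and it was -0.04 without that array. The truncated end probe gave 11.91, 11.87, 11.32 and 11.63 in heterozygous samples, against 11.83, 11.48, 11.69 and 11.77 in wildtype samples. Its difference was -0.01 (SE 0.160, 95% interval -0.38 to 0.36, adjusted p = 0.988).

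Whether receptor forms moved unequally was asked within each sample, as the log2 difference between a pair of probes, compared between genotypes over 3 pairs by exact two-sided permutation tests. The full-length end minus the shared probe differed by -0.21 between genotypes, the full-length end minus the truncated end by 0.04, and the shared minus the truncated end by 0.30, each with an adjusted exact p of 0.857. Within the heterozygous group the full-length end minus shared value was -0.70 and -0.84 in replicates 1 and 2, and -2.10 and -1.62 in replicates 3 and 4, against -1.19, -0.86 and -1.27 in wildtype replicates 1, 3 and 4. The samples of 1 array thus lay below the wildtype range and those of the other heterozygous array above it.

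Bdnf was set against its receptor in the same way. The genotype difference of Bdnf minus Ntrk2 was 0.54 for the full-length end, 0.50 for the shared probe and 0.58 for the truncated end, each with an adjusted exact p of 0.200 over the 3 pairs. The 3 pairs share the Bdnf probe and are not independent. Without replicate 3 the values were 0.21, 0.53 and 0.42. With 4 samples per genotype, an unequal change of ligand and receptor was not detected.

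The genes most like the shared Ntrk2 probe over 7 samples, among 8654, were Ifit3 (r = 0.972), Nnat (r = 0.969), Capn10 (r = 0.968), Nat8f4 (r = 0.963) and Vwa1 (r = 0.959). Being the highest of so many correlations over 7 samples, these values are large through selection and are descriptive only.

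Ntrk3, the NT-3 receptor, averaged lower with all 4 of its probes, none of them past the threshold. For the full-length tail probe the dye-centred log2 values were 12.23, 11.68, 11.33 and 12.13 in heterozygous replicates 1 to 4, against 12.55, 12.39, 12.21 and 12.12 in wildtype replicates 1 to 4. Heterozygous replicates 2 and 3 lay below every wildtype value, and replicates 1 and 4 among them. The difference was -0.47 (SE 0.215, 95% interval -0.97 to 0.02, adjusted p = 0.570 in limma), and -0.26 without replicate 3. The kinase loop probe gave 10.56, 9.96, 9.19 and 10.39 in heterozygous samples, against 10.36, 10.03, 10.44 and 10.18 in wildtype samples. Its difference was -0.23 (SE 0.290, adjusted p = 0.820) and turned to 0.12 without replicate 3.

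The truncated forms of Ntrk3 gave no call either. The truncated end probe measured 11.89, 11.50, 10.33 and 11.50 in heterozygous samples, against 11.51, 11.30, 11.94 and 11.35 in wildtype samples. It differed by -0.22 (SE 0.330, adjusted p = 0.848), and by 0.17 without replicate 3. The truncated tail probe, which ends at the stop codon shown above, differed by -0.15 (SE 0.128, adjusted p = 0.732), with values of 10.64 to 11.07 in heterozygous samples and 10.88 to 11.15 in wildtype samples. Replicate 3 was the lowest of the 8 samples for the full-length tail, the kinase loop and the truncated end, and it was not for the truncated tail. In the 6 pairs of Ntrk3 probes the smallest exact p was 0.0857, for truncated tail minus full-length tail (0.33, adjusted exact p = 0.514).

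The same library was low in genes of striatal projection neurons. Averaged over that list and set against wildtype, heterozygous replicates 1 to 4 stood at 0.08, -0.65, -0.94 and -0.12, and wildtype samples between -0.08 and 0.12. Differences of its tested genes were negative for 25 of 25, where 46.3% of all probes had a positive difference, their median was -0.37, and none passed in limma at an adjusted p under 0.05 (5 were lower at an unadjusted p under 0.05, beside 4.83% of all probes). The Ntrk3 full-length tail followed the same order of heterozygous samples, with replicates 2 and 3 lowest in both. The part of this list in the Ntrk3 values was not tested.

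Ngfr, which encodes the p75 receptor and is best known in the adult forebrain from cholinergic neurons of its base, averaged higher in heterozygous striata, with 1 library far above the rest. Its probe (A_52_P236448, chr11:95430211-95430270, minus strand, base 3270 of NM_033217) gave dye-centred log2 values of 9.24, 9.43, 11.33 and 10.10 in heterozygous replicates 1 to 4, against 8.97, 9.15, 9.02 and 9.88 in wildtype replicates 1 to 4. Replicate 3 stood above all others, and replicates 1 and 2 lay within the wildtype range. The difference was 0.77 (SE 0.458, 95% interval -0.29 to 1.83, adjusted p = 0.646 in limma). It was 0.27 without replicate 3 and 0.08 without the array of replicates 3 and 4.

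The Ngfr probe had 10 spots per array, and 9 of them were kept for heterozygous replicate 3. They ranged from 11.13 to 11.84 in log2 normalised intensity, and the highest spot in any other sample was 10.21. The SD among spots of a sample was between 0.09 and 0.28, so the height of replicate 3 is not a single spot. The same library stood high in several marker lists relative to wildtype, at 1.49 for thalamic and hypothalamic genes, 1.43 for choroid plexus and ependymal genes, 0.75 for meningeal genes and 0.44 for oligodendrocyte genes. Mbp, a myelin gene of oligodendrocytes, went the other way, at 11.72 in replicate 3 against 12.29 to 12.64 in wildtype samples after dye removal. Of the 12 tested oligodendrocyte genes, 9 had a positive and 3 a negative genotype difference. High list levels were not confined to replicate 3. The meningeal list stood at 0.14, 0.50, 0.75 and 0.46 in heterozygous replicates 1 to 4, against at most 0.13 in wildtype samples. Replicate 4 lay above the wildtype range for thalamic and hypothalamic genes (0.50) and for choroid plexus and ependymal genes (0.34). Replicate 2 lay above it for the choroid plexus list (0.23), and replicate 1 lay below it for the thalamic and choroid plexus lists. The list of cholinergic basal forebrain genes stood at 0.33 in replicate 3, and in wildtype samples between -0.16 and 0.24. Ngfr is itself 1 of its 7 tested genes. At 11.33 in replicate 3, against a wildtype mean of 9.25, it made up most of that list level. Chat, the acetylcholine-synthesising enzyme, measured 10.56 in replicate 3, against 9.78 to 10.27 in wildtype samples after dye removal. Apart from Ngfr and Chat, the tested genes of the cholinergic list did not average above wildtype in replicate 3. The part of these lists and of Chat in the Ngfr value was not tested.

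**Figure D3:**
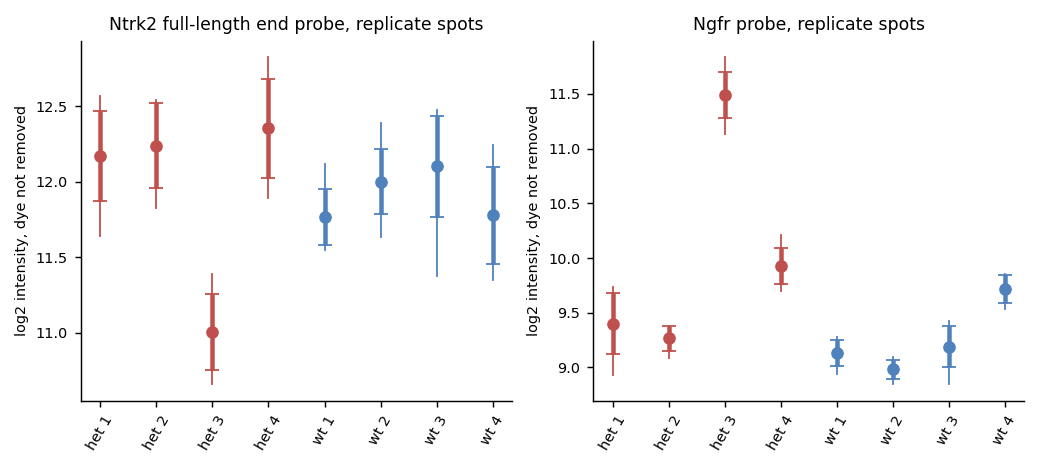
Log2 normalised intensity, with the dye effect not removed, of the replicate spots of the Ntrk2 full-length end probe and of the Ngfr probe in each sample, heterozygous (het, red) left of wildtype (wt, blue). Points are means over 9 or 10 spots, thick bars the SD and thin lines the range of spots; heterozygous replicate 3 lies below all other samples for Ntrk2 and above all others for Ngfr.

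**Figure D4:**
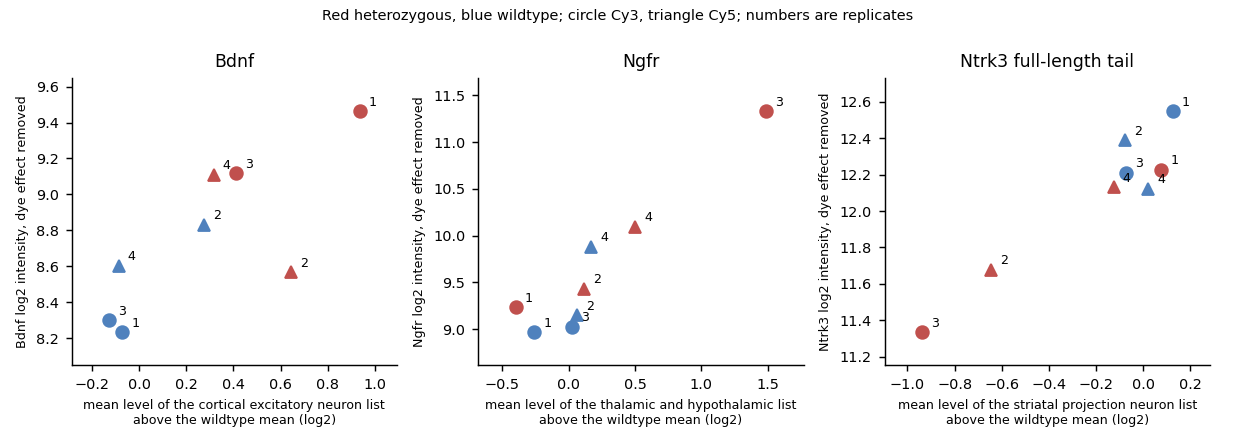
Bdnf, Ngfr and the Ntrk3 full-length tail in each sample (dye-centred log2 intensity, vertical axis) beside the mean level of a marker list relative to the wildtype mean (log2, horizontal axis). Red is heterozygous and blue wildtype, circles are Cy3 and triangles Cy5; Ngfr is high where the thalamic and hypothalamic list is highest, in heterozygous replicate 3.

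Sort1 encodes sortilin, which pairs with p75 in binding neurotrophin precursors and sorts BDNF into the secretory pathway. The differences of its 3 probes did not share a sign, and none passed the threshold. The bright probe at base 6674 of NM_019972 (A_52_P590396) measured 12.25 to 12.71 in heterozygous samples and 12.50 to 12.75 in wildtype samples, and differed by -0.11 (SE 0.134, adjusted p = 0.805). The probe that starts at base 2243 (A_51_P517145), 60 bases aligned from 108157150 to 108159198 of chromosome 3 and so across a gap, differed by 0.16 (SE 0.120, adjusted p = 0.692).

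The last Sort1 probe (A_55_P2076683, chr3:108158404-108158463, base 2259 of ENSMUST00000090564) lies inside the gap of the previous one and so reads sequence that the spliced form does not hold there. It gave 8.74, 8.92, 8.87 and 8.75 in heterozygous replicates 1 to 4, against 8.93, 9.14, 9.27 and 8.99 in wildtype replicates 1 to 4. The groups did not overlap, though heterozygous replicate 2 lay just under wildtype replicate 1. The difference was -0.26 (SE 0.115, adjusted p = 0.561 in limma), -0.30 in Cy3 and -0.23 in Cy5.

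Gfra1, the binding receptor of GDNF, gave overlapping values in the genotypes. Its probe (A_52_P398998) gave 8.55, 8.08, 8.07 and 8.78 in heterozygous samples, against 8.47, 8.16, 7.97 and 8.04 in wildtype samples. The difference was 0.21 (SE 0.199, adjusted p = 0.759 in limma), and 0.01 without heterozygous replicate 4. Ret, the signalling receptor, was near background (A_55_P2160676), well above it in 2 heterozygous samples and 1 wildtype sample, with dye-centred values of 7.20 to 8.23 in heterozygous samples and 7.10 to 7.43 in wildtype samples. The highest value was again replicate 3, in Cy3, where the spot was not called above background.

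Other trophic ligands and receptors gave no call either. Of 24 listed genes on the array 19 were tested, 8 with a positive and 11 with a negative difference, and 0 reached an unadjusted p under 0.05, beside 8.88% of all probes. Their median was -0.03. Gfra2, the receptor of neurturin, differed by 0.71 (SE 0.358, adjusted p = 0.595 in limma) with groups that overlapped, and neurturin itself (Nrtn) by 0.16 (SE 0.294). Cntf, a cytokine that supports motor neurons, differed by 0.24 and Gfra4, the persephin receptor, by -0.63, with overlapping groups. The probe of Ntf5, the NT-4 gene, was well above background in 0 samples.

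Genes that cut, store or sort neurotrophins were split evenly. Of 23 tested, 11 had a positive and 12 a negative difference; the median was -0.01, and none passed the adjusted threshold. At an unadjusted p under 0.05, 3 were higher and 2 lower, against 4.06% and 4.83% of all probes. The smallest p-values belonged to Serpini1, the neuroserpin that inhibits tissue plasminogen activator, with a difference of 0.74, and to the proprotein convertases Pcsk1 and Pcsk5, with differences of 0.33 and 0.38. Furin, a convertase that cuts neurotrophin precursors, differed by 0.13, and the sortilin relatives Sorcs1, Sorcs2 and Sorcs3 by -0.01, 0.04 and 0.12.

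Trk signalling genes numbered 48, of which 31 had a positive and 17 a negative difference; the median was 0.03. None passed the adjusted threshold, and 3 higher and 1 lower reached an unadjusted p under 0.05, a share near the 8.88% of all probes. The smallest p-values belonged to the adaptor Sh2b3, which differed by -0.44, the PI3-kinase subunit Pik3r2, by 0.31, and the adaptor Shc1, by 0.32. Kidins220, a scaffold that binds Trk receptors and p75, differed by 0.01 (SE 0.290), with replicate 3 at 9.60 below all other samples, and the neuronal adaptor Shc3 by -0.12 (SE 0.098).

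Of 21 tested genes of p75 signalling, 13 had a positive and 8 a negative difference; the median was 0.08, and none passed the adjusted threshold. Bex1, which binds the inner part of p75, differed by -0.69, Arhgdia by 0.58 on 2 wildtype values, and Rtn4r, the Nogo receptor that works with p75, by 0.96. Of 19 activity-regulated transcripts, 8 had a positive and 11 a negative difference; the median was -0.07, and none passed the adjusted threshold. Nrn1, a growth-promoting protein that BDNF induces, differed by 1.81 and is also on the cortical list. Homer1 differed by -0.34, Scg2 by -0.39 and Fos by -0.05 (SE 0.237).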

How the data were processed

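Spot intensities (linear brightness with local background, per channel) were extracted by the authors with Agilent Feature Extraction 10.7.3.1, per the file headers, and probe coordinates there are mm9. The 2 samples of an array had the same file, from which only the channel of the sample's own dye was used. The deposited value table holds a ratio of each background-subtracted spot intensity to its column's median, found from the values, and is neither logged nor centred by gene. It served as an alternative.

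In limma 3.58.1 under R 4.3.3, with statmod 1.5.0, the mean spot intensity was corrected for the median background (normexp, offset 50), followed by loess within and Aquantile between arrays, and each channel was taken as log2 values. Files were read with data.table (version 1.17.8). The 1377 control spots were left out, as were outlier spots among the other 43020. Saturation occurred in no spot, and spots of the same probe were averaged. Probes well above background in at least 4 of 8 samples were tested (lmFit, eBayes) with terms for genotype and dye and the array as a random block (consensus correlation -0.01), at an adjusted p under 0.05. The fit was tested on simulated data. SDs, group ranges and permutation tests use values with the dye mean removed. Arrays and genotype can be told apart only as far as 2 arrays per genotype allow, slide and scan were the same for all, and the number of arrays limits the precision.

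The members and gene lists were chosen with earlier results of these data known. Named were every member probe, Brd2, the 3 smallest p-values of each pathway list with a set of fixed genes, fixed markers, and the 5 genes most like Bdnf and Ntrk2. Some genes that this rule picks are not reported here. Lists use the brightest tested probe of a gene. Of the array's probes, 27234 were named by accession through the RefSeq gene table of GRCm38.p6. Probe sequences are those of the array files. Replicate numbers were checked as a pairing, by deviations from the fit of genotype and dye. These correlated between genotypes at 0.17, -0.30, -0.19 and -0.26 for replicates 1 to 4, over 23852 probes. Removing the genotype and dye effects itself makes such correlations negative, so they cannot decide whether the numbers pair the samples. Alternatives covered the background correction, the normalisation, the value table, the filter, the unit tested, array and replicate blocks, dye, variance model, threshold and each left-out sample. After the data were seen, the left-out array, the permutation within dye and the Ntrk3 pairs were added. Figures were drawn with matplotlib 3.10.9.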

Additional observations from a re-analysis of the deposited data

Results flagged for a closer look

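Gdnf in heterozygous replicate 1, at 8.70 on the log2 scale after dye removal, stood apart from the other 3 heterozygous samples at 8.52 to 8.55. Its gap to the nearest of them was 0.862 of the group's range, past Dixon's 95% critical value for 4 samples. It lay below the lowest wildtype value of 8.80. Of 35 groups checked this 1 was picked out, and chance picks out about 1 in 20.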

How the results depend on the processing

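No member probe passed the threshold under any alternative fit; 2 did at an unadjusted p under 0.05. Bdnf kept its positive difference in all 25 alternatives, between 0.12 and 1.02, with a lowest p of 0.0857. Gdnf stayed negative in all 23 of its alternatives, between -0.67 and -0.30 (adjusted p 0.330 to 0.970), and Ngfr stayed positive in 24, between 0.08 and 1.29. Whether the replicate numbers pair the samples was not settled. With the replicate number as a block, Bdnf differed by 0.57 (adjusted p = 0.561) and Brd2 by -0.85 (adjusted p = 0.457), Bdnf minus Ntrk2 by 0.54, 0.52 and 0.58, 0 member probes passed, and 0 of all probes passed in place of 1.

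The count of all probes past the threshold was also 0 with loess and median scaling, in the value table, with no filter on dim probes, with 1 probe per gene, in Cy3 alone and without the array of heterozygous replicates 3 and 4, and between 0 and 1 with 1 sample left out. It was 2 at an adjusted p under 0.1 and 2250 at an unadjusted p under 0.05. Brd2 at -0.85 passed only in the exact permutation test over 8 samples (p = 0.0286), and not in the exact permutation within dye (p = 0.0556).

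Signs turned for these uncalled probes, and the cause was not tested. The Ntrk2 full-length end differed by -0.0048 with scanner-processed signals, -0.057 in the value table, -0.35 in Cy3 and -0.20 to 0.34 with 1 sample left out. The Ntrk2 shared probe gave -0.0014 in the value table and -0.043 without that array. The Ntrk2 truncated end gave 0.020 with median scaling, 0.13 in Cy5, 0.20 without that array and -0.12 to 0.13 with 1 sample left out. The Ntrk3 truncated end gave 0.17 both in Cy5 and without that array, and -0.48 to 0.17 with 1 sample left out; the kinase loop gave 0.070, 0.0084 and -0.51 to 0.12. Sort1 at base 6674 gave 0.054 without that array. With 1 sample left out, the genotype difference between probe pairs ranged from -0.52 to 0.19 (Ntrk2 full-length end minus shared), from -0.11 to 0.20 (full-length end minus truncated end), from -0.24 to 0.28 (Ntrk3 truncated end minus truncated tail), from -0.10 to 0.094 (truncated end minus kinase loop, -0.074 in the value table) and from -0.22 to 0.23 (truncated tail minus kinase loop). Low signal over background in Cy3 limits Bdnf, Ntf3 and Ret most.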
